A study of Oryza sativa Japonica Group with 9 samples.

Results

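CERK1 and CEBIP encode the chitin perception receptors of rice, and their transcripts were followed in root cortex cells with and without an arbuscular mycorrhizal fungus. All probe sets that the platform annotation pairs with CERK1 (LOC4346173) or CEBIP were taken, which gave 2 of the 57258 rice probe sets on the array, 1 for each of these 2 genes out of 17905 with a probe set of their own. The name CERK1 is also listed as a synonym of a different gene, RLK10, so CERK1 stands here for LOC4346173 alone. Plants of the japonica cultivar Nipponbare were harvested at 7 weeks, and RNA of laser-captured cortical cells, about 2000 per sample, was hybridised to 9 single-colour arrays. Arbusculated cells held the branched feeding structures of Rhizophagus irregularis, given as 250 spores at planting. Systemic cells came from roots inoculated in the same way, had no fungus inside and lay next to arbusculated cells. Mock cells came from uninoculated roots, and each group had 3 arrays. Each sample pooled many cells, and the labels do not say which plants they came from. Where plants were shared within a group, the p-values below are too small.

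Chitin, a polymer of N-acetylglucosamine, is a structural part of fungal walls, and its fragments are read by plant receptors with LysM domains. In rice, CEBiP is a LysM protein of the plasma membrane that binds chitin fragments but has no kinase domain. CERK1 is a LysM receptor kinase that signals together with CEBiP in chitin-triggered immunity and also takes part in the response to mycorrhizal fungi.

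Values are log2 expression values made with RMA, so a difference of 1 is a doubling. The median value of an array lay between 5.42 and 5.54. Of the 4 probe sets of PT11, the phosphate transporter of arbuscules, the 1 that responded most, chosen after its values were seen, read 8.30 to 9.43 on the arbusculated arrays, 3.56 to 4.20 on the mock and 3.55 to 4.37 on the systemic arrays. The mean level of the arbuscule markers PT11 and AMT3;1, each by its brightest probe set without the _x_at suffix, overlapped between the groups, at 6.49 to 7.27, 6.43 to 6.75 and 6.47 to 6.95 in the same order. Across probe sets mock 2 correlated, on average, at 0.853 with its fellow mock arrays and at 0.878 with the arbusculated ones. Mock 1 (0.850 with mock, 0.852 with systemic) and systemic 3 (0.860 with systemic, 0.866 with mock) were also slightly closer to another group than to their own.

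CERK1 was highest in the cells that housed the fungus. It read 6.55, 6.35 and 6.62 on arbusculated arrays 1, 2 and 3. On mock arrays 1, 2 and 3 it read 5.23, 5.80 and 4.83, and on the systemic arrays 5.75, 5.06 and 4.65. Each arbusculated array was thus above each of the 6 other arrays, a pattern that 3.6% of all probe sets had. The mock and systemic values overlapped along nearly their whole range. The mean was 6.51 ± 0.14 (SD, n = 3) in arbusculated cells, 5.29 ± 0.48 in mock cells and 5.15 ± 0.56 in systemic cells.

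CEBIP showed no such separation, and its 3 groups overlapped. It read 4.87, 3.42 and 3.78 on the arbusculated arrays and 3.89, 4.05 and 3.30 on the mock arrays. On the systemic arrays it read 3.13, 5.25 and 2.39. The highest and the lowest of its 9 values were both systemic. The mean was 4.02 ± 0.76 (SD, n = 3) in arbusculated cells, 3.74 ± 0.40 in mock cells and 3.59 ± 1.49 in systemic cells. The SD within groups was 0.99 for CEBIP and 0.43 for CERK1, where the median over all probe sets was 0.41. CEBIP was also dim, with a mean over the 9 arrays of 3.79 and only 15% of all probe sets dimmer. The mean of CERK1 was 5.65, with 53.4% dimmer. A weak signal and a transcript that does not respond cannot be told apart here for CEBIP. In bulk RNA of this kind, fewer expressing cells and less RNA per cell cannot be told apart.

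**Figure D1:**
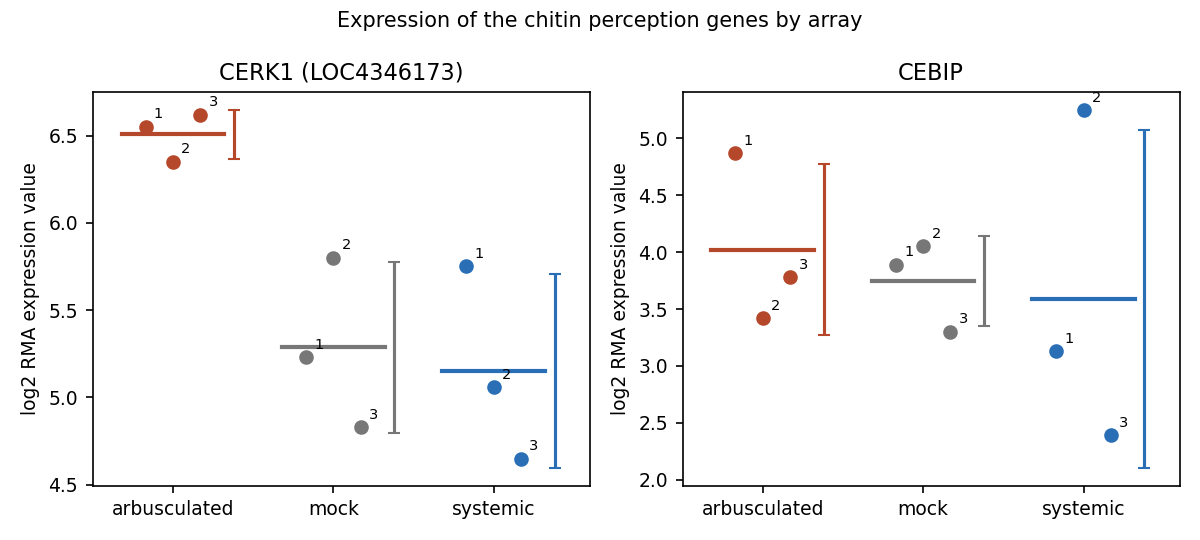
Log2 RMA expression value (vertical axis) of CERK1 and CEBIP on each array, by group. Points are arrays with their replicate number, horizontal lines are group means and bars are 1 SD; the 3 arbusculated arrays lie between 6.35 and 6.62 for CERK1, above the other 6, while the groups of CEBIP overlap. The vertical axes start above 0 and differ between the panels.

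Arbusculated against mock cells asks how transcripts differ between a cortical cell with an arbuscule and a cortical cell of a root without fungus. CERK1 was 2.33-fold higher in arbusculated cells, a log2 difference of 1.22 ± 0.34 (SE, n = 3 per group) with a 95% interval of 0.45 to 1.99. It did not pass the test over all probe sets (adjusted p = 0.268 by limma, unadjusted p = 0.00624). Of all probe sets 4.93% had at least as large a difference upwards and 2.32% had at least as small an unadjusted p. CEBIP differed by 0.28 ± 0.70 (adjusted p = 0.852 by limma), and its interval of -1.31 to 1.87 left room for a difference as large as that of CERK1. In this comparison 0 of the 2 probe sets passed, and 1 had an unadjusted p under 0.05, where 0.187% of all probe sets passed and 14.2% were under 0.05 unadjusted. The CERK1 groups did not overlap, and in 6.64% of all probe sets every arbusculated array was above every mock array.

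Arbusculated against systemic cells asks what differs in colonised roots between cells with the fungus inside and their fungus-free neighbours. CERK1 was 2.56-fold higher in arbusculated cells, by 1.36 ± 0.34 on the log2 scale (SE, n = 3 per group), with a 95% interval of 0.58 to 2.13. It missed the threshold (adjusted p = 0.122 by limma, unadjusted p = 0.00346). A difference at least as large was found in 5.45% of all probe sets, and at least as small an unadjusted p in 2.84%. CEBIP differed by 0.43 ± 0.70, with an interval of -1.16 to 2.03 (adjusted p = 0.711 by limma). Again 0 of the 2 passed and 1 was under 0.05 unadjusted, where the shares of all probe sets were 0.246% and 23.9%. Every arbusculated array was above every systemic array for CERK1, as in 9.39% of all probe sets. This comparison and the one with mock cells share the arbusculated arrays.

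Systemic against mock cells asks what differs in fungus-free cells that lie beside colonised ones. With 3 arrays per group, CERK1 differed by -0.13 ± 0.34 (SE) at an adjusted p of 0.98 in limma. The 95% interval of -0.91 to 0.64 allows a level in systemic cells from 0.533-fold to 1.56-fold that in mock cells. CEBIP differed by -0.15 ± 0.70, with an interval of -1.74 to 1.44 (adjusted p = 0.99 by limma). Both receptors had overlapping groups and neither had an unadjusted p under 0.05. In limma 0% of all probe sets passed in this comparison, and 4.34% had an unadjusted p under 0.05. For CERK1 the order of the means was therefore arbusculated, mock, systemic, and the last 2 did not differ beyond their spread.

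A moderated F test for any difference among the 3 groups gave an adjusted p of 0.226 for CERK1 and 0.896 for CEBIP in limma, with unadjusted p of 0.00632 and 0.825. Of all probe sets 0.173% passed this test and 16.3% had an unadjusted p under 0.05.

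Whether the receptors differed in their response was tested on the CERK1 minus CEBIP difference within each array, a test chosen after the values were seen. The change of CERK1 exceeded that of CEBIP by 0.94 between arbusculated and mock cells (exact permutation test, two-sided, p = 0.2, n = 3 per group). Between arbusculated and systemic cells the excess was 0.92 (p = 0.5), and between systemic and mock cells 0.02 (p = 1), by the same exact test. With 3 against 3 arrays this test cannot go below 0.1, so it could not have passed 0.05, and it says neither that the responses of CERK1 and CEBIP differ nor that they are alike.

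Single arrays moved CEBIP more than CERK1. Without mock 2, CERK1 was 1.48 ± 0.34 higher in arbusculated than in mock cells (adjusted p = 0.145 by limma), and without mock 3 0.99 ± 0.36 higher (adjusted p = 0.417). Without systemic 2, CEBIP was 1.26 ± 0.48 higher in arbusculated than in systemic cells (adjusted p = 0.231) and differed by -0.98 ± 0.48 between systemic and mock cells (adjusted p = 0.999). Without systemic 3, CEBIP differed by -0.17 between arbusculated and systemic cells, and without arbusculated 1 by -0.14 between arbusculated and mock cells. CERK1 stayed above mock and above systemic in arbusculated cells with any 1 array left out, by 0.99 to 1.48 and by 1.10 to 1.65.

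**Figure D2:**
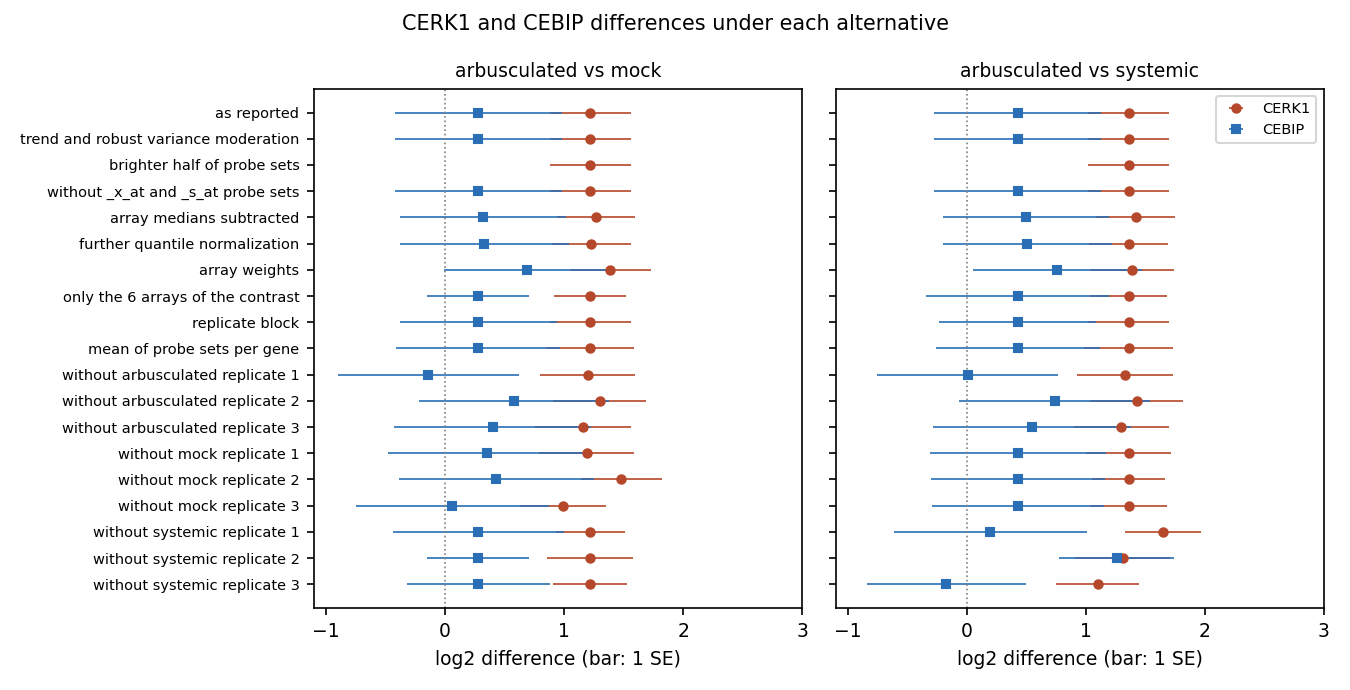
Log2 difference (horizontal axis, bar 1 SE) of CERK1 and CEBIP under each way of processing the values, for arbusculated against mock (left) and against systemic cells (right). CERK1 lies between 0.99 and 1.65 throughout, while CEBIP runs from -0.17 to 1.26 and has no value where only the brighter probe sets were kept.

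Measures of RNA quality and of other cell types also varied between the arrays. Rice control genes probed at both ends (7 pairs) gave a 3' minus 5' log2 difference, which grows as RNA degrades. It was 1.25, 0.73 and 0.36 on arbusculated arrays 1, 2 and 3. It was 0.42, 0.34 and 0.20 on the mock arrays and -0.07, 0.56 and 0.10 on the systemic arrays. The mean level of CESA4, CESA7 and CESA9, cellulose synthases of xylem and sclerenchyma walls, was 6.27 to 6.60 on the arbusculated, 7.06 to 8.01 on the mock and 6.07 to 6.89 on the systemic arrays. That of 5 endodermis markers was 6.96 to 8.52, 7.18 to 7.87 and 7.18 to 7.33. CSLD1, a cellulose synthase-like gene of root hairs, read 3.36 to 6.69, 3.85 to 8.03 and 3.37 to 3.90, and the phloem sucrose transporter gene SUT1 6.28 to 7.21, 6.56 to 6.64 and 5.98 to 6.80. The part of any of these in the CERK1 difference was not tested.

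Of other LysM genes sought under the names LYP, LYK, CERK, NFR or MYR1, 2 could be used, LYP4 and RLK10, and the groups of both overlapped. The LysM genes LYP6 and MYR1 were not found by name and not analysed here, nor were RLCK185, SYMRK and other genes sought for the lists below. The lists are thus parts of their pathways. LYP4 (LOC4347230), a LysM protein that binds chitin and peptidoglycan, read 2.94, 3.46 and 2.84 on the arbusculated arrays, 4.16, 3.44 and 3.35 on the mock arrays and 3.90, 3.90 and 3.31 on the systemic arrays. Its groups overlapped, with differences of -0.57 ± 0.30 against mock and -0.62 ± 0.30 against systemic cells (adjusted p of 0.401 and 0.242 by limma), and -0.31 against mock without mock 1. RLK10 had 2 probe sets. The first differed by -0.33 ± 0.67 against mock and -0.29 ± 0.67 against systemic cells, and the other, which may cross-hybridise by its suffix, by 0.30 ± 0.59 and 0.80 ± 0.59. None of the 4 differences passed (adjusted p of 0.816, 0.803, 0.808 and 0.404 by limma). On mock 2 the RLK10 probe sets read 5.58 and 7.32, their highest values.

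**Figure D3:**
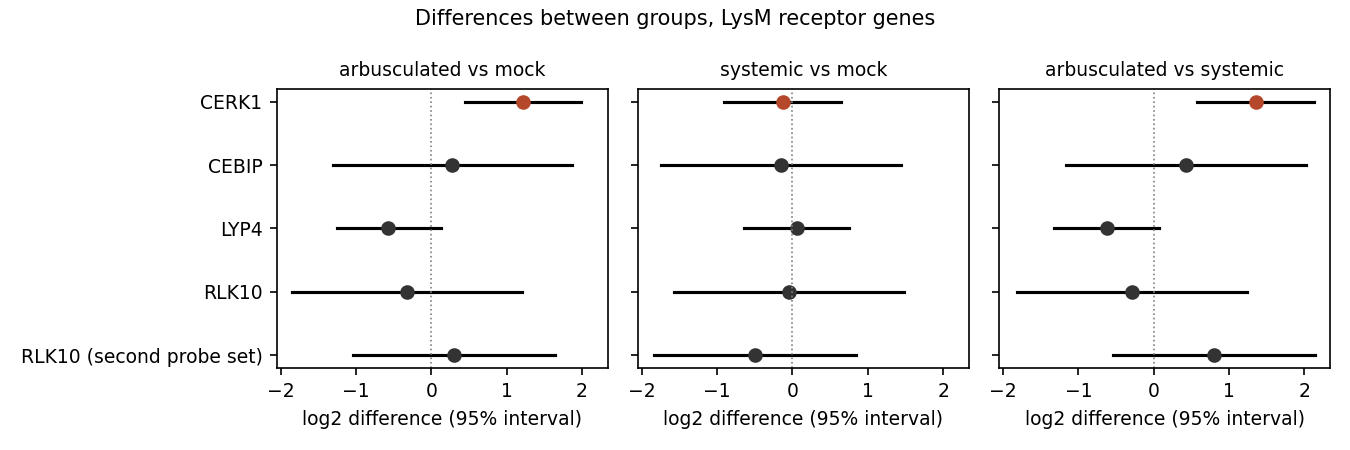
Log2 difference (horizontal axis) with its 95% interval for CERK1, CEBIP, LYP4 and both probe sets of RLK10 in the 3 comparisons. Among these probe sets the interval lies wholly above 0 for CERK1 alone, in arbusculated against mock (0.45 to 1.99) and against systemic cells (0.58 to 2.13).

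Below the receptors, 7 genes of chitin-triggered immune signalling were found by name and measured, and 0 passed in any comparison by limma. Against mock, 7 of 7 were higher in arbusculated cells with a median of 0.65, and against systemic cells 6 of 7 with a median of 1.08. The median of all probe sets was -0.12 and -0.17 in these comparisons, and 41.2% and 40.2% of all probe sets were above 0. An unadjusted p under 0.05 was found for 1 of the 7 in each of these comparisons, where 14.2% and 23.9% of all probe sets had one, and for 0 of the 7 in systemic against mock cells. Against mock this was HSP90, named after its values were seen, at 1.58 ± 0.52 with overlapping groups (unadjusted p = 0.0149, adjusted p = 0.305 by limma). Against systemic cells it was RAR1 (unadjusted p = 0.0214 by limma). Of the 7, MPK6, SGT1 and RAR1 were named for the largest differences from systemic cells. Their separation from those cells is thus no independent result, and the comparison with mock cells shares the arbusculated arrays. MPK6 (LOC4340170), a MAP kinase activated by chitin, read 7.34, 5.77 and 7.81 on the arbusculated arrays and 5.69, 5.64 and 5.42 on the systemic arrays. It was 1.39 ± 0.71 higher than in systemic cells (adjusted p = 0.258 by limma). Each arbusculated array was above each systemic one, as in 9.39% of all probe sets. On the mock arrays it read 5.04, 7.45 and 5.10, so that mock 2 lay within the arbusculated range. The co-chaperones SGT1 (LOC4326682) and RAR1 (LOC4329567), which serve immune receptor complexes, were 1.14 ± 0.71 and 1.09 ± 0.39 higher than in systemic cells (adjusted p of 0.337 and 0.162 by limma). Against mock they were 1.26 and 0.65 higher (adjusted p of 0.415 and 0.435). These values against mock moved with single arrays. SGT1 ran from 0.55 without mock 3 to 2.03 without mock 2, RAR1 from 0.34 without arbusculated 1 to 0.99 without arbusculated 2, and MPK6, at 1.11, from 0.70 without arbusculated 3 or mock 1 to 1.91 without mock 2. RAC1, MPK3 and RBOHB, named after their values were seen, differed from mock by 0.08 ± 0.17, 0.18 ± 0.43 and 0.43 ± 0.89. Among the mock arrays all genes of this list but RBOHB read highest on mock 2. The 7 directions against mock are thus not independent of each other.

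CERK1 also signals into the symbiosis pathway. Of the symbiosis signalling list 4 genes were measured and 0 passed in any comparison by limma. By their brightest probe sets 0 of the 4 had an unadjusted p under 0.05. Of all probe sets 14.2% were under it against mock, 23.9% against systemic and 4.34% between systemic and mock cells. The median was 0.41 against mock and 0.13 against systemic cells, beside -0.12 and -0.17 for all probe sets. POLLUX (LOC4324936), a nuclear ion channel, was 1.04 ± 0.55 higher than in mock and 0.52 ± 0.55 higher than in systemic cells (adjusted p of 0.399 and 0.562 by limma), and its difference from mock ran from 0.57 without mock 1 to 1.75 without mock 2. CCaMK (LOC4339160), the kinase that reads nuclear calcium, was 0.35 and 0.56 higher (adjusted p of 0.667 and 0.386). With 1 array left out CCaMK ran from 0.16 to 0.66 and from 0.22 to 0.89. With its probe sets averaged it was 1.09 higher than in systemic cells (unadjusted p = 0.00302, adjusted p = 0.122 by limma). CASTOR (LOC4334751), named after its values were seen, differed by -0.43 and -0.26 (adjusted p of 0.762 and 0.822 by limma). D3 (LOC9272469), an F-box protein of karrikin and strigolactone signalling that the list also holds, differed by 0.47 and -0.28 (adjusted p of 0.772 and 0.834).

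Chitinases, which cut chitin, did not go one way. Of 11 measured, 4 had differences above 0 against mock and 3 against systemic cells, with medians of -0.31 and -0.35, and 0 passed in any comparison by limma. Unadjusted p was under 0.05 for 4 and 7 of them, where the shares of all probe sets were 14.2% and 23.9%. Of these, 3 were higher and 1 lower in arbusculated than in mock cells, and 3 higher and 4 lower than in systemic cells. CHT7 (LOC4338720), named after its values were seen, was among the lower ones in both, where its arbusculated mean was 4.43, its mock mean 5.21 and its systemic mean 5.43. CHT4, CHT5 and LOC4348631, named in the same way, were the other lower ones against systemic cells. CHT10 (LOC4325148) read 7.03, 8.07 and 6.78 on the arbusculated arrays, 3.51, 3.59 and 5.17 on the mock arrays and 5.39, 4.02 and 4.61 on the systemic arrays. Its arbusculated values were all above the other 6, as in 3.6% of all probe sets. Their mean was 3.20 ± 0.56 over the mock mean and 2.62 ± 0.56 over the systemic mean (adjusted p of 0.0936 and 0.102 by limma). LOC4351188, named only chitinase in the tables, read 6.23, 5.38 and 5.92 in arbusculated cells against 4.39 to 4.61 in mock and 4.69 to 4.70 in systemic cells. It was 1.37 ± 0.24 and 1.15 ± 0.24 higher (adjusted p of 0.0936 and 0.0974 by limma). CHT6 (LOC4329920) read 6.65, 8.66 and 5.58 in arbusculated cells, with 4.75 to 5.11 in mock and 4.82 to 5.41 in systemic cells. Its differences were 2.03 ± 0.66 and 1.80 ± 0.66 (adjusted p of 0.3 and 0.167 by limma), and the lowest arbusculated value was close to the highest systemic one. Without arbusculated 2 the CHT6 differences were 1.18 and 0.95. CHT10, LOC4351188 and CHT6 were named for the largest differences from systemic cells, so their separation from those cells is no independent result. The comparison with mock cells uses the same arbusculated arrays, so their separation from mock is not independent of that choice either. Chitinases form a gene family, and how far their probe sets share transcripts was not tested.

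**Figure D4:**
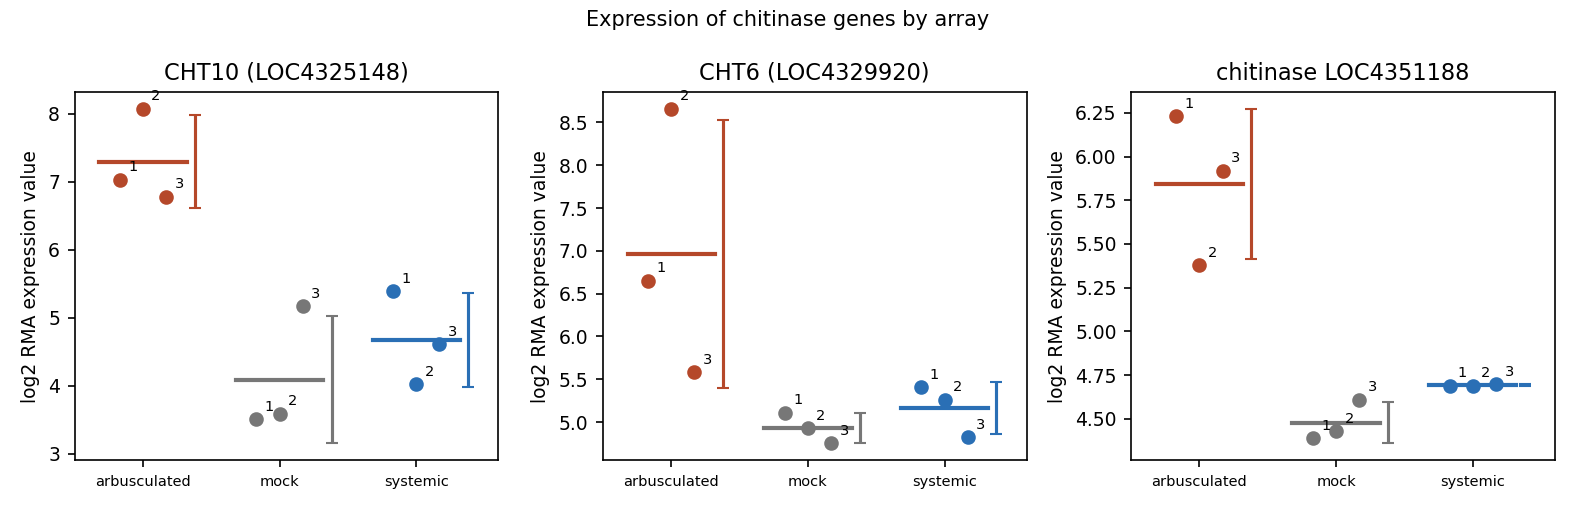
Log2 RMA expression value (vertical axis) of 3 chitinase genes on each array, by group, with the replicate number at each point, the group mean as a line and 1 SD as a bar. The arbusculated arrays lie above the other 6 for each gene, a pattern that 3.6% of all probe sets had. As the genes were named for their large differences from systemic cells, this separation is no independent result. The arbusculated values start at 6.78 for CHT10, 5.58 for CHT6 and 5.38 for LOC4351188. The vertical axes start above 0 and differ between the panels.

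Of 4 defence genes that chitin can induce, 0 passed in any comparison by limma, and 1 had an unadjusted p under 0.05 in each, where the shares of all probe sets were 14.2% against mock, 23.9% against systemic and 4.34% between systemic and mock cells. The median was -0.50 against mock and 0.30 against systemic cells. PBZ1 (LOC4352491), a pathogenesis-related protein of the PR10 family, read 8.96, 8.29 and 6.23 on the arbusculated arrays, 6.74, 7.20 and 6.74 on the mock and 6.44, 6.21 and 6.65 on the systemic arrays. The third arbusculated array lay in the range of the other groups, and the differences were 0.94 ± 0.60 and 1.39 ± 0.60 (adjusted p of 0.46 and 0.206 by limma). They were 0.37 and 0.82 without arbusculated 1, and 1.73 and 2.19 without arbusculated 3. The phenylalanine ammonia-lyase gene PAL (LOC4330034), at the entry of phenylpropanoid synthesis, differed by -0.52 against mock and 0.64 against systemic cells (adjusted p of 0.478 and 0.285). The chalcone synthase gene CHS (LOC4350636), at the entry of flavonoid synthesis, differed by -1.09 and -0.38 (adjusted p of 0.331 and 0.556), and by -0.64 against mock with its probe sets averaged. With 1 array left out, PAL ran from -0.78 to -0.10 against mock, the latter without arbusculated 2. Against systemic cells PAL ran from 0.38 without arbusculated 1 to 1.06 without arbusculated 2, and was 0.26 after quantile normalization. Against systemic cells CHS ran from -0.11 without arbusculated 1 to -0.83 without arbusculated 2.

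In systemic against mock cells the medians were -0.01 for immune signalling, 0.17 for symbiosis signalling, 0.24 for chitinases and -0.58 for defence genes, beside 0.07 for all probe sets. In that comparison 0 list genes passed by limma, and the unadjusted p was under 0.05 for 1 of 11 chitinases and 1 of 4 defence genes, where 4.34% of all probe sets were under it. The defence gene was PAL, picked out in this comparison after its values were seen, at -1.16 ± 0.35 (unadjusted p = 0.01, adjusted p = 0.969 by limma). Of all probe sets 0.873% had at least as small an unadjusted p. All 4 defence genes were lower in systemic than in mock cells, where 58.7% of all probe sets were above 0. PBZ1 differed by -0.45 ± 0.60 and CHS by -0.71 ± 0.40. PAL06, named after its values were seen, differed by -0.44 ± 0.31 with overlapping groups.

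**Figure D5:**
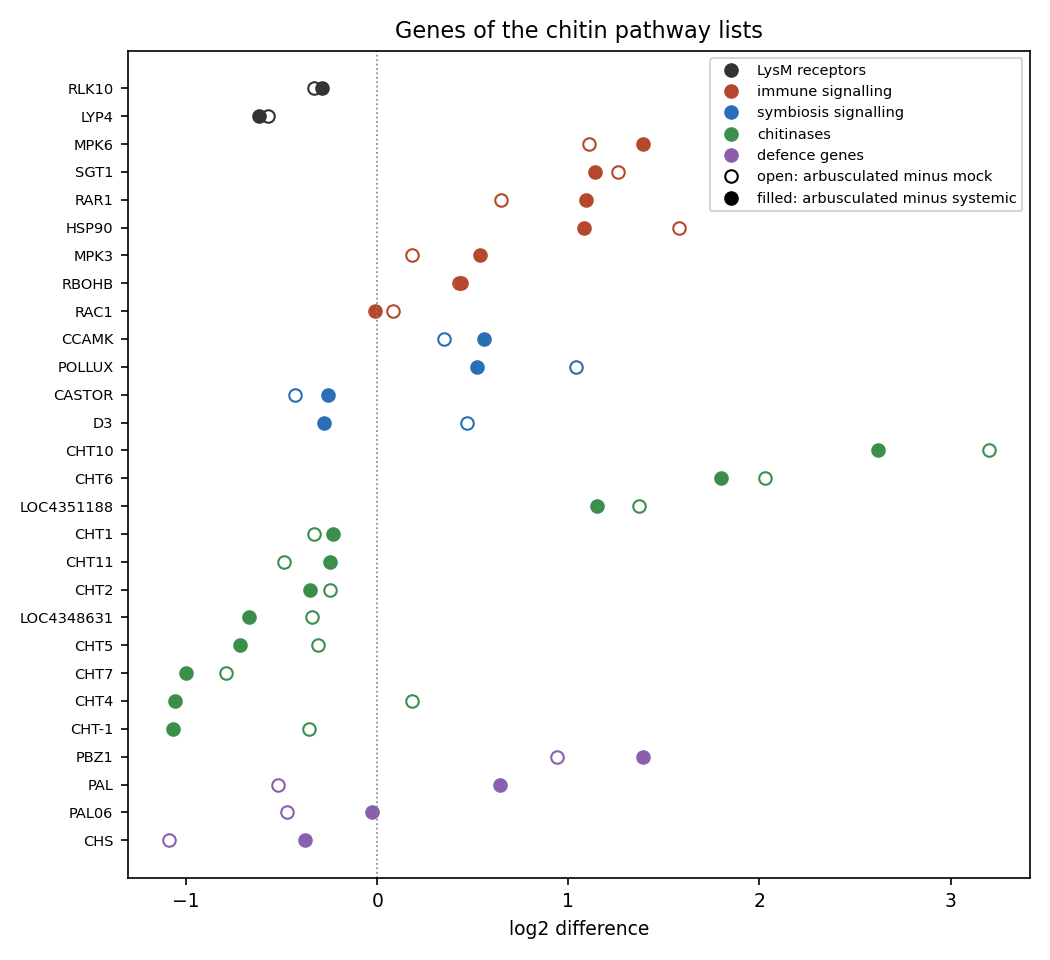
Log2 difference (horizontal axis) of each of the 28 measured list genes, with open circles for arbusculated minus mock and filled circles for arbusculated minus systemic cells, coloured by list. CHT10 has the largest differences, 3.20 and 2.62, and the immune signalling genes lie mostly above 0; 0 of the 28 passed the test.

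The genes most like CERK1 and CEBIP were sought by Pearson correlation over the 9 arrays among genes whose symbol does not start with LOC or Os. These were only 78 for CERK1 and 77 for CEBIP, of the 17905 genes with a probe set of their own. Most genes, among them CHT10, SGT1, RAR1 and MPK6, could therefore not appear. All correlations come from the same 9 arrays, where the groups differ, and they are a description. For CERK1 they were HCT1 (r = 0.87), HIRL1 (0.857), MAGO2 (0.833), BIP1 (0.81) and MYBS2 (0.809). The mean of HCT1 was 8.11 in arbusculated cells, 7.07 in mock cells and 6.44 in systemic cells. That of HIRL1 was 10.39, 7.74 and 8.29, and both were highest in arbusculated cells, as CERK1 was. For CEBIP they were KIN17 (0.824), wsl3 (0.805), ASL1 (0.779), CPK24 (0.744) and wsl8 (0.704). With 1 array left out, the lowest r of HCT1 with CERK1 was 0.833 and that of wsl8 with CEBIP 0.456. Over the 9 such runs HCT1 stayed among the first 5 for CERK1 in 9, HIRL1 in 7, MAGO2 in 6, BIP1 in 4 and MYBS2 in 2. For CEBIP, CPK24 stayed in 9 and wsl8 in 5. Between CERK1 and CEBIP themselves r was 0.299 and Spearman's rho 0.367.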

How the data were processed

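The values are log2 expression, 1 per probe set and array, which the authors computed with RMA (background correction, normalisation between arrays and summary of the probes of a set), per the submitters' processing notes. The sources used here do not state its version. The table held 57381 probe sets, and its 123 array controls did not enter the tests. Values were used as deposited, and for arrays their number, 3 per group, limits the precision.

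All 9 arrays were fitted in 1 linear model with limma 3.58.1 in R 4.3.3, two-sided, with Benjamini-Hochberg adjustment over 57258 probe sets at 0.05. The fit was tested on simulated data. CERK1 and CEBIP, the 5 gene lists and the naming rule were chosen with earlier results of these data known. List genes were found by symbol or synonym in refseq_genes of assembly ASM3414082v1, of which 28 of 38 had a usable probe set. Another 6 were left out because the gene under that name was a different one (judged for a dehydrin named DIP1 after its values were seen), and 4 had no probe set of their own free of the _x_at suffix. Genes sought but not found by name are not among the 38. A gene was represented by its brightest probe set without that suffix. The naming rule took both members, all LysM genes, and of each other list the 3 with the largest difference between arbusculated and systemic cells. Deviations from group means of arrays with the same replicate number correlated at -0.285 to 0.039, so the numbers were not used as pairs. No genome or sequence tables were used, and alternatives are given in the closing section.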

Additional observations from a re-analysis of the deposited data

How the results depend on the processing

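The CERK1 differences between arbusculated and mock and between arbusculated and systemic cells kept their direction and missed the threshold in all 18 alternatives, at 0.99 to 1.48 (adjusted p 0.145 to 0.552) and 1.10 to 1.65 (0.0784 to 0.289). With a replicate block CERK1 differed by 1.22 (adjusted p = 0.387) and 1.36 (0.208), and the block changed no call; the replicate numbers are not stated to mark shared plants. Array weights gave 1.39 (0.0784) against systemic cells. Subtracting array medians gave 1.27 and 1.42. CEBIP could not be fitted among the probe sets above the median level, since its mean over the arrays was below it. Neither gene, and no measured list gene, passed in any alternative run, and the count of both was 0 in the 17 alternatives in which both could be fitted. The directions that turned were these. With 1 array left out, systemic against mock ran from -0.43 to 0.12 for CERK1 (0.12 without mock 2 or systemic 3), from -0.98 to 0.45 for CEBIP (0 without mock 2, 0.08 without systemic 1, 0.45 without systemic 3), and from -0.10 to 0.31 for LYP4 (-0.05 without mock 2, -0.1 without mock 3, -0.04 without systemic 1 or 2). Likewise CEBIP ran from -0.14 to 0.58 against mock and from -0.17 to 1.26 against systemic cells. RLK10 ran from -0.67, -0.69 and -0.45 upwards: it turned to 0.29 and 0.21 against mock without arbusculated 2 or mock 2, to 0.33 and 0.12 against systemic cells without arbusculated 2 or systemic 2, and to 0.49 and 0.36 between systemic and mock cells without mock 2 or systemic 3. With array weights it was 0.07 and 0.09 (arbusculated and systemic against mock), and with probe sets averaged 0.26 against systemic cells. D3 ran from -0.09 to 0.78 and from -0.86 to 0.66: it turned to -0.09 against mock without arbusculated 1, and to 0.02 and 0.66 against systemic cells without arbusculated 3 or systemic 3. The CERK1 minus CEBIP difference between systemic and mock cells ran up to 0.9 and turned to -0.08, -0.51 and -0.33 without mock 1, systemic 1 or systemic 3. The cause of these turns was not tested.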
